A study of Mus musculus with 4 samples.

Results

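Crowded cultures of Lats2 KO and Lats2 WT mouse embryonic fibroblasts (MEFs) were compared by the RNA in the high density channel of each array, which gave 4 channels of the 8 in the series. The series holds 4 arrays of Agilent whole mouse genome 60-mers, each hybridised with a low density and a high density culture of 1 genotype in different dyes. The high density culture carried Cy5 on the first array of each genotype and Cy3 on the dye-swapped array, so that KO and WT were read against each other within each dye. The MEFs were of the C57BL/6J strain, with the genotypes Lats2-/- (KO) and Lats2+/+ (WT), and no other allele or agent was named. They were grown in DMEM with 10% fetal bovine serum for 3 to 5 days to high density and for 48 h to subconfluent low density. A dye swap is a technical repeat, so each genotype gave 1 sample at high density. No test was therefore possible, no p-value is given, and the spread between the dyes is the only error available. The KO cells came from earlier work of the same group. The labels did not give the number of embryos or lines behind each genotype, nor did they say if a dye swap repeated 1 RNA extract. The WT arrays shared 1 slide and 1 scan day. The KO arrays were on 2 slides scanned 216 days apart, and no slide held both genotypes. Genotype, culture, slide and scan day cannot be told apart in any difference below.

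Lats2 is a kinase of the Hippo pathway. In crowded cells, Lats kinases phosphorylate the coactivators YAP and TAZ, which are then held out of the nucleus, and the genes that YAP and TAZ switch on together with TEAD factors fall. Contact between fibroblasts also stops their division and raises the secretion of extracellular matrix. Comparing the genotypes in crowded cultures asks how the transcriptome of cells labelled Lats2 KO differs under the condition in which the pathway is active.

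The high density channels had 53.9% to 67.7% of their features well above background and no saturated feature. Of 12 fibroblast markers, all 12 were well above background, among them Col1a1, Col3a1, Vim and Thy1. Most markers of other cell types were not. For endothelial cells 3 of 12 passed, with Pecam1, Cdh5, Kdr and Tek not detected, although the summed signal of the list was 11430 to 13900 units in labelled KO and 734 to 832 in labelled WT, mostly through Ptprb and Erg. For macrophages 4 of 12 passed, with Adgre1, Ptprc, Itgam and C1qa not detected, and the sums were 4827 to 5933 against 1310 to 1328, mostly through Lyz2. Cd14 ran the other way and was 3.00-fold lower in labelled KO. Of 12 epithelial markers 2 were detected (804 to 822 against 1022 to 1054), of 14 neural and neural crest markers 6 (20600 to 21340 against 15960 to 17940), of 13 skeletal muscle markers 4 (18200 to 25850 against 9821 to 12230) and of 10 mesothelial markers 3 (643 to 729 against 1090 to 1156). Sox10, Myod1, Epcam and Wt1 were among those not detected. Some members ran against the sum of their list. Of the detected neural markers, Nes was 13.6-fold and S100b 5.42-fold lower in labelled KO, and the others were within 2-fold. Of the muscle markers, Tnnt1 was 19.1-fold lower, Actc1 2.57-fold and Acta1 2.01-fold higher, and Tnnt3 within 2-fold. Of 12 germ cell and pluripotency markers 2 passed, and of 8 erythroid markers on the array 1. No Y-linked marker of 8 was detected in either genotype, whereas Xist was well above background in both. Their part in the results below was not tested. In such bulk RNA, fewer cells of a type and less RNA per cell cannot be told apart.

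The targeted gene was examined first. The Lats2 probes at the 3' side of the gene on chromosome 14 read more signal in labelled KO than in labelled WT. The probe at 56644080 to 56644139 (array annotation, build mm8, minus strand) gave 11.85 in Cy3 and 11.86 in Cy5 for labelled KO, and 10.41 and 10.32 for labelled WT, on the log2 scale of the normalized signal. The probe at 56645246 to 56645305 gave 7.76 and 7.80 against 6.94 and 6.78. Upstream, the probe at 56676512 to 56676571 ran the other way, with 6.76 and 6.51 in labelled KO and 7.89 and 7.89 in labelled WT, a difference of -1.26. The array annotation assigns this probe to an alternatively spliced Lats2 mRNA and the other Lats2 probes to the RefSeq mRNA. Whether it reads that form alone was not tested. The genotypes did not overlap at any Lats2 probe, but 3 of 4 went against the label. Which part of the gene the KO allele lacks was not stated in the sources used here, so a probe outside it checks nothing. The study also examined its Lats2 KO MEFs by western blotting as a check of the knockout, which was not analysed here. Every direction below is that of the labels. Lats1, the paralogue of Lats2, was not well above background at one of its probes in labelled WT, where labelled KO was at least 2.09-fold higher (7.36 and 7.62 against 6.55 and 6.30). The other Lats1 probe gave 10.49 and 10.78 in labelled KO and 10.39 and 10.87 in labelled WT, so the genotypes overlapped.

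A probe was tested where it was well above background in both dyes of at least 1 genotype, which held for 23617 of 41174 probes. It was called where the mean of both dye comparisons was at least 2-fold and both had the same sign. By this rule 3076 probes (13.0%) were called, 1516 higher (6.42%) and 1560 lower (6.61%) in labelled KO. The median difference of all tested probes was 0.038 on the log2 scale. The dyes read the same differences closely. The SD across probes of a dye's deviation from the mean of both was 0.149, and none of the probes with a 2-fold mean had opposite signs in the dyes. Of the called probes, 291 of the higher and 367 of the lower were not well above background in both dyes of the dimmer genotype. Where it was so in neither dye only a bound on the fold is given, and where it was so in 1 dye this is said beside the value, which is then less certain. Counted by gene, with the brightest tested probe standing for each of 12775 genes, 1986 genes (15.5%) were called, 882 higher (6.90%) and 1104 lower (8.64%), and the median was 0.0046. These shares are the background for the gene lists below.

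**Figure D1:**
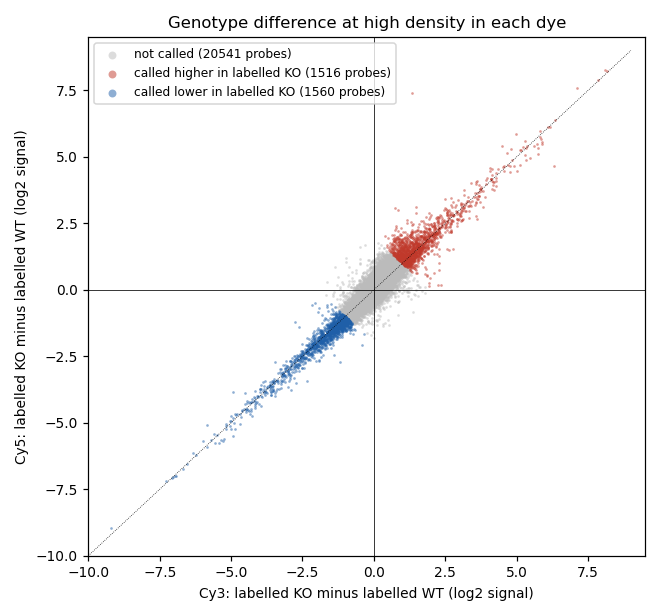
Difference of labelled KO minus labelled WT at high density for 23617 tested probes, as the log2 difference in Cy3 (x axis) and in Cy5 (y axis), with the 1516 probes called higher in red, the 1560 called lower in blue and the others in grey. Most points lie near the dotted line of equal values, with a few called probes far from it.

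The highest difference was that of Lrrc15 (chromosome 16), a leucine-rich repeat membrane protein of activated stromal fibroblasts, with 15.05 and 14.81 in labelled KO (Cy3 and Cy5) and 6.90 and 6.59 in labelled WT, a 292-fold difference. Sfrp2 (chromosome 3), a secreted binding protein of Wnt ligands, gave 13.14 and 13.53 against 6.79 and 7.15, or 82.3-fold. Dlk1 (chromosome 12), an imprinted Delta-like membrane protein that holds back adipocyte differentiation, gave 14.98 and 15.09 against 8.83 and 8.96. In each of these the channels of the genotypes were separated by more than 5 log2 units, and the dyes differed by less than 0.5. Lgr5 (chromosome 10, 114855901 to 114855960), a receptor of the R-spondins that amplify Wnt signals, gave 12.23 and 12.20 against 6.34 and 6.65, a log2 difference of 5.72. Grem1 (chromosome 2, 113549909 to 113549968), a secreted BMP antagonist, gave 13.27 and 13.90 against 8.78 and 8.49. Crabp1 (chromosome 9, 54566522 to 54566581), which binds retinoic acid in the cytosol, gave 11.74 and 12.03 against 6.39 and 6.64. Here too no channel of labelled KO came near those of labelled WT. The other genes in the top 15 were the serine protease gene Prss12 (5.80), the microfibril gene Fbn2 (5.52), the endothelin receptor gene Ednra (5.43), the proprotein convertase gene Pcsk6 (5.22), the keratan sulphate proteoglycan gene Omd (5.20), the teneurin gene Tenm3 (5.18), Wscd2 (5.11), Ly6a (4.90), which encodes the surface antigen Sca-1, and Erdr1 (7.87). Ly6a belongs to a cluster of similar genes, so its signal may hold that of its relatives. Another Erdr1 probe gave 2.41 and another Tenm3 probe 4.86. Further probes of Lrrc15, Tenm3, Wscd2, Pcsk6 and Ednra were not well above background in labelled WT. That of Lrrc15 was at least 40.45-fold higher in labelled KO. Some of the others were also dim in labelled KO, such as a Wscd2 probe with 6.45 and 6.48 against 6.15 and 6.28.

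The lowest difference was that of Inmt. Inmt (chromosome 6), which methylates indoleamines, gave 6.41 and 6.50 in labelled KO and 15.61 and 15.46 in labelled WT, a 542-fold difference. Ctsh (chromosome 9), a lysosomal cysteine protease, gave 6.80 and 6.90 against 14.10 and 14.09. Scx (chromosome 15), the transcription factor scleraxis of tendon progenitors, gave 7.33 and 7.05 against 13.89 and 13.62. These genes were bright in labelled WT and close to background in labelled KO. Perp (chromosome 10, 18546307 to 18546366), a p53 target of desmosomes, gave 7.69 and 7.59 against 13.53 and 13.49. Apoe (chromosome 7, 18854905 to 18854964), the apolipoprotein of lipid transport, gave 7.66 and 7.69 against 12.85 and 12.81. The dyes lay within 0.3 of each other for each of these genes, against gaps of at least 5 between genotypes. Also among the lowest 15 were the peptidase gene Cpq (-7.09), the lipid droplet gene Plin4 (-5.59), the phosphate regulator Phex (-5.50), the homeobox gene Hoxa7 (-5.50), the carbonyl reductase gene Cbr2 (-5.48), the guanine nucleotide exchange factor gene Arhgef5 (-5.48), the water channel gene Aqp1 (-5.46), the osteopontin gene Spp1 (-5.22) and the chemokine gene Ppbp (-5.13).

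**Figure D2:**
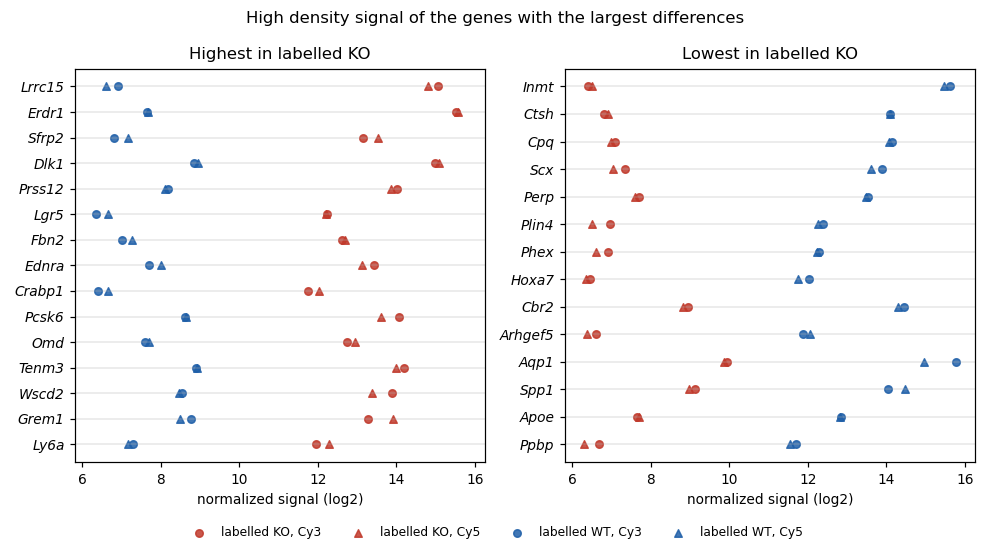
Normalized log2 signal at high density of the 15 genes highest (left) and of 14 of the 15 lowest (right) in labelled KO, with 1 point per channel (circles Cy3, triangles Cy5, red labelled KO, blue labelled WT). For every gene shown the channels of labelled KO lie together and at least 4 log2 units from those of labelled WT.

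At low density, read on the same arrays, the log2 difference was 5.46 for Lrrc15 and 4.51 for Grem1, against 8.19 and 4.95 at high density. Crabp1, Sfrp2 and Lgr5 were not well above background in labelled WT at low density. On the lower side it was -7.23 for Ctsh, -1.98 for Apoe and -5.12 for Inmt, which was detected in 1 dye of labelled KO there. Plin4 (2.41) and Phex (0.58) were above 0 at low density and more than 5 log2 units below 0 at high density. Because both densities share arrays, no comparison of the lists of genes was made.

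Probes detected in both dyes of 1 genotype and in neither dye of the other were counted where the bound was not below equal signal. They numbered 1226 for labelled KO and 363 for labelled WT, and their bound was at least 2-fold for 195 and 159. The detected share was highest in the labelled KO Cy5 channel, at 67.7% against 53.9% to 56.2% in the others, which touches the first of these counts. Igfbp3 (chromosome 11, 7106594 to 7106653), which binds insulin-like growth factors, gave 14.08 and 14.23 in labelled KO and was not well above background in labelled WT (5.97 and 5.98), so it was at least 246-fold higher. None of its 3 tested probes was well above background in labelled WT. Ptprb, a receptor phosphatase best known from endothelium, was at least 139-fold higher (13.20 and 13.48 against 6.09 and 5.88), and none of its 4 tested probes was well above background in labelled WT. Kif1a, a motor of axonal transport, was at least 59.8-fold higher, the craniofacial and limb homeobox gene Alx4 at least 50.4-fold (its other probe gave 0.88, with detection in 1 dye of labelled WT), and Ebf3 at least 47.5-fold. On the lower side, Zic1 (chromosome 9, 91158512 to 91158571), a zinc finger factor of neural and somite patterning, was not well above background in labelled KO (5.91 and 6.00) and gave 12.94 and 13.05 in labelled WT, so it was at least 119.9-fold lower. Plac8 was at least 118-fold lower, Nrn1 at least 33.7-fold, the RNA-binding protein gene Elavl2 at least 31.9-fold and Esm1, a secreted proteoglycan gene, at least 26.2-fold.

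The differences were not spread evenly over the genome. On chromosome 15, 182 of 930 tested probes were lower and 30 higher, so that 22.8% were called, against 13.0% of all probes. The median of its probes was -0.51 (-0.48 in Cy3 and -0.53 in Cy5), a ratio of 0.702, and 81.5% of its probes lay below 0. In segments of 20 Mb the medians ran from -0.73 to -0.27, all of the 6 below 0. With no filter on background, which adds probes that were not detected, the median of chromosome 15 was -0.15, that of chromosome 4 -0.09, and those of chromosomes 5 and 12 were 0.10 and 0.09. Chromosome 4 had a median of -0.32 with 143 probes lower and 40 higher of 1369, chromosome 6 a median of -0.20 (127 lower and 62 higher of 1171) and chromosome 7 a median of -0.18 (138 lower and 39 higher of 1569). In each of them every segment had a median below 0. Together chromosomes 4, 6, 7 and 15 held 21.5% of the tested probes with a position, 38.0% of those called lower and 11.4% of those called higher.

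Other chromosomes were shifted upwards. Chromosome 12 had a median of 0.30 (95 higher and 48 lower of 927), chromosome 5 a median of 0.28 (152 higher and 55 lower of 1519), chromosome 14 a median of 0.20 and chromosome 1 a median of 0.19. Every 20 Mb segment of chromosomes 5 and 12 had a median above 0, from 0.20 to 0.53 and from 0.21 to 0.39. Chromosomes 8, 13 and X had medians of 0.018, -0.008 and 0.013. The dyes agreed within 0.05 for the median of each of the 20 chromosomes. The same chromosomes stood out in the low density channels, where the median was -0.47 for chromosome 15, -0.31 for chromosome 4, 0.24 for chromosome 5 and 0.27 for chromosome 12. By contrast, the median change from low to high density within a genotype lay between -0.04 and 0.11 for every chromosome. The number of copies of each chromosome was not measured on these arrays. Within 10 Mb of the Lats2 probes 35 of 277 probes were called (12.6%), beside 69 of 550 (12.5%) on the rest of chromosome 14.

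**Figure D3:**
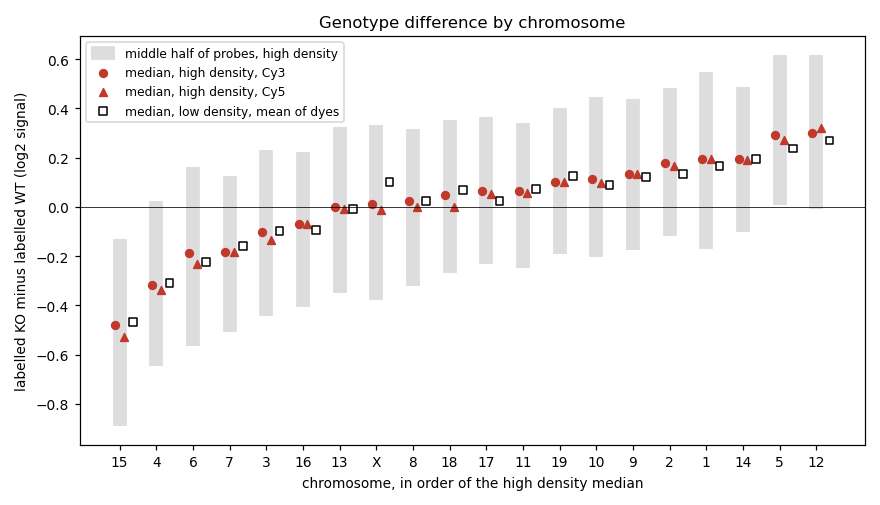
Median log2 difference of labelled KO minus labelled WT over the tested probes of each chromosome, at high density in Cy3 (circles) and Cy5 (triangles) and at low density (open squares), with grey bars from the lower to the upper quartile of the probes at high density. Chromosome 15 lies lowest at -0.51 and chromosome 12 highest at 0.30, and the dyes and densities give like medians.

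When the median of its chromosome was subtracted from each probe, 1370 probes were higher and 1453 lower. Of the probes called before, 1244 of 1516 higher and 1279 of 1560 lower stayed past 2-fold in the same direction. On chromosome 15, 56 of the 182 lower probes did. None of 42 genes of oxidative phosphorylation was called and the median was -0.03. The lowest, Cyc1 (-0.70) and Cox6c (-0.68), lie on chromosome 15, as do Ndufa6 (-0.31) and Ndufb9 (-0.15). At low density Cyc1 gave -1.06 and Cox6c -0.02. The highest, Cox6a1 (0.65), lies on chromosome 5 and stood at 0.37 after the subtraction. What part of these values goes with the chromosome was not tested. Large differences moved little in proportion: Scx stood at -6.05 and Cpq at -6.58 after the subtraction. For each list below, the counts of called genes that stayed past 2-fold are given where they changed. Genes that passed 2-fold only after the subtraction are not in these counts.

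The 35 gene lists held 885 genes that were tested, and in 25 lists the share called was above the 15.5% of all genes. Because the lists were chosen with earlier results of these data known, this count is no test of them. The proteoglycans, elastic fibre genes, Wnt genes and collagens had the highest medians, and the chemokines, Hox genes and DNA replication genes the lowest. None of the 31 proteasome genes was called (median -0.16), and among 24 genes of cholesterol synthesis only Hsd17b7 was (1.83, median 0.22). Of 14 reference genes 2 were lower, the transferrin receptor gene Tfrc (-2.36) and the glucuronidase gene Gusb (-2.30), and 12 were not called, among them Gapdh (-0.82), Hprt (-0.81), Ppia (-0.02) and Actb (0.12, with another probe at 0.81). The list median was -0.29. Several genes named as called by their brightest probe had another probe under 2-fold, namely Wwtr1 (0.70), Stk3 (-0.69), Rbbp4 (-0.29), Prrx1 (0.91), Tnc (0.77), Cxcl12 (-0.81) and Hsd17b7 (0.72), and, with detection in 1 dye of the dimmer genotype, Tbx15 (-0.82) and Masp1 (0.72). Other probes of Jag1, Cdh2 and Lyz2 were not well above background in labelled WT. The lowest of 6 tested Prrx1 probes gave 0.66.

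**Figure D4:**
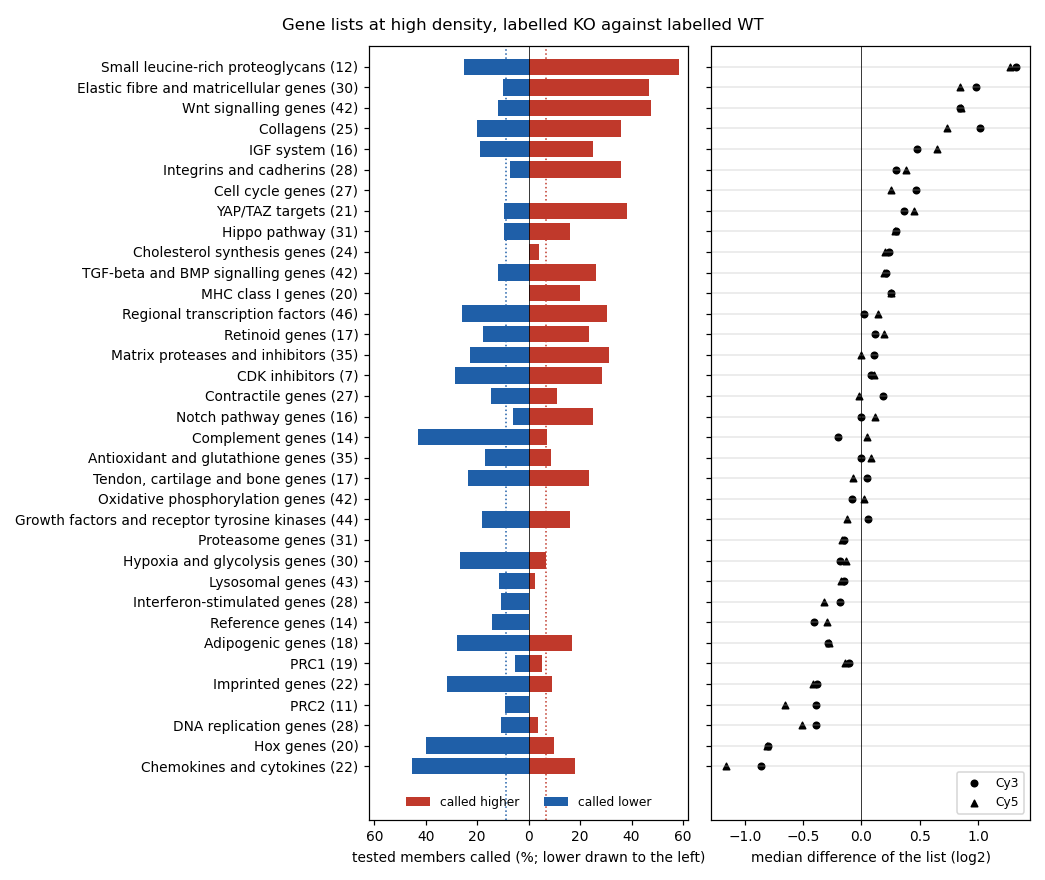
Share of the tested members of each gene list (number tested in brackets) called higher (red, to the right) or lower (blue, to the left) in labelled KO at high density, with dotted lines at the shares of all genes (6.90% and 8.64%), and the median log2 difference of each list in Cy3 (circles) and Cy5 (triangles). The median is highest for the small leucine-rich proteoglycans (1.30) and lowest for the chemokines and cytokines (-0.94), which were not the lowest list under 2 settings of the background filter.

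Of 42 tested Wnt signalling genes 20 were called higher in labelled KO, 5 lower and 17 neither (19 higher and 5 lower stayed after the chromosome medians were subtracted). The list median was 0.89, beside 0.0046 for all genes, and it was 0.44 with no filter on background and 0.58 over genes detected in both genotypes. Wnt ligands bind Frizzled receptors with the coreceptors Lrp5 and Lrp6 and stabilise beta-catenin, which acts with TCF and LEF factors. The ligands went both ways. Wnt4 was at least 9.67-fold higher in labelled KO, Wnt9a gave 11.09 and 11.06 against 8.23 and 8.10 (2.91), and Wnt2 gave a log2 difference of 2.58, which was called. Wnt5a (2.77) was above background in only 1 dye of labelled WT. Wnt5b, by contrast, gave 7.60 and 7.59 in labelled KO and 11.88 and 11.71 in labelled WT, a difference of -4.20, and Wnt16 (-3.64) was detected in 1 dye of labelled KO. Signal for Wnt4 and Wnt5b was thus each high in a different genotype. Among receptors, Lgr4 (1.67), Lrp6 (1.63), Lrp5 (1.42) and Fzd5 (1.06) were higher and Fzd4 (-1.30) was lower. The Lgr4 probes ranged from 0.62 to 1.67, the Lrp6 probes from 0.48 to 1.63 and those of Fzd5 from -0.23 to 1.06. Of the secreted antagonists, Sfrp1 was called higher at 12.42 and 12.78 against 9.38 and 9.54 (3.14), as were Dkk2 at 2.52 and Dkk3 at 1.43, whereas Frzb, not well above background in labelled WT, was not called. R-spondins were split, with Rspo1 at 1.65, detected in 1 dye of labelled WT, and Rspo2 at 10.61 and 10.29 against 13.33 and 13.17 (-2.80). Rspo2 lies on chromosome 15, and its difference was -2.29 after the median of the chromosome was subtracted. Among genes known as transcriptional targets of the pathway, Nkd2 (4.32), Lef1 (2.11) and Axin2 (1.26) were called higher, of which Nkd2 and Axin2 were above background in 1 dye of labelled WT, while Nkd1 (0.65), Ccn4 (0.93) and Znrf3 (-0.26) were not called. Beta-catenin itself (Ctnnb1) gave 0.32 and was not called.

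**Figure D5:**
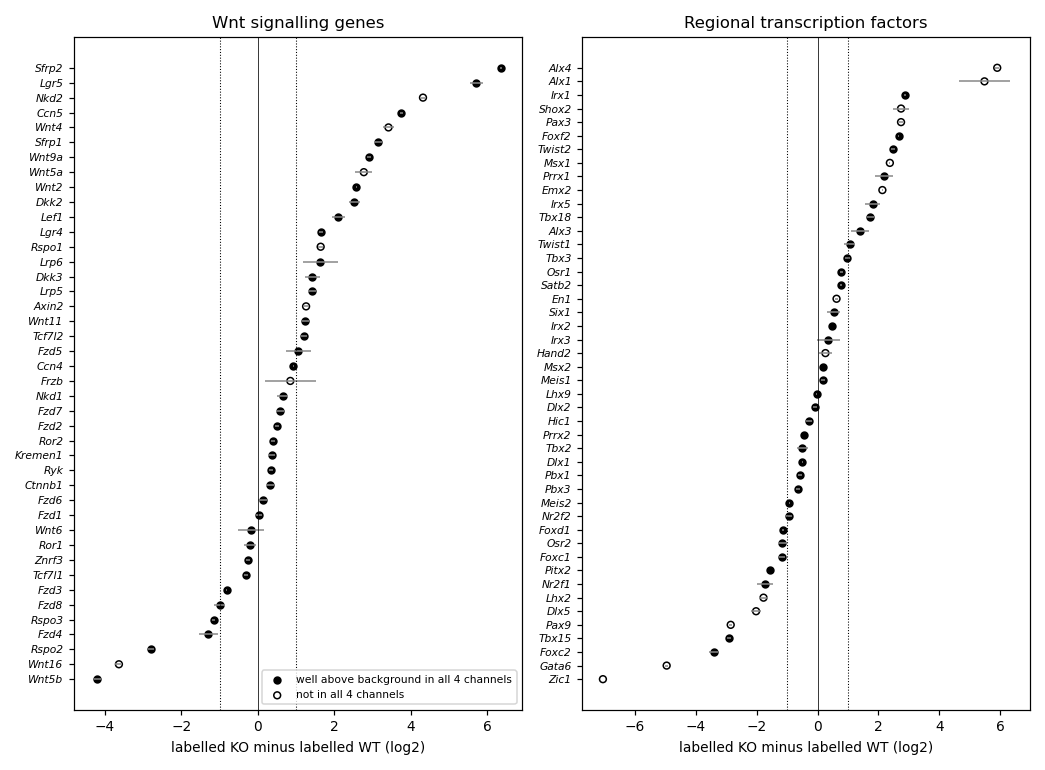
Log2 difference of labelled KO minus labelled WT at high density for the tested Wnt signalling genes (left) and regional transcription factors (right), with lines that join the Cy3 and Cy5 values, filled points for genes well above background in all 4 channels, and dotted lines at 2-fold. Wnt genes extend mainly to the right, to 6.36 for Sfrp2, whereas the regional factors lie on both sides of 0, and the values of open points, such as Zic1 and Alx4 at the ends, rest on signal that was not above background in every channel.

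Of 25 collagen genes 9 were higher and 5 lower (median 0.87, and 4 lower after the chromosome medians were subtracted). Col8a1, a short chain collagen, gave 16.93 and 16.79 in labelled KO against 13.36 and 13.28 in labelled WT (3.54), and Col12a1, which decorates collagen fibrils, gave 2.26. Col4a6, a basement membrane chain, was at least 21.4-fold higher at its brightest probe, while another of its probes gave 0.54. The collagens that build most of the matrix differed less, with Col1a1 at 0.93, Col1a2 at 0.70 and Col3a1 at 0.14, none of them called. Lower were Col5a3 (-3.42), the anchoring fibril gene Col7a1 (9.77 and 9.70 against 12.85 and 12.97, -3.17) and Col18a1 (-2.04), a proteoglycan of basement membranes.

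Small leucine-rich proteoglycans, which bind collagen and growth factors, were called in 10 of 12 cases, 7 higher and 3 lower, with a median of 1.30. Dcn (decorin) gave 18.26 and 17.29 against 14.42 and 14.16 (3.48), Aspn (asporin) gave 14.11 and 13.94 against 9.89 and 10.18 (3.99), and Bgn (biglycan) gave 1.56. Lum (lumican) ran the other way, with 13.71 and 13.91 against 15.25 and 15.29 (-1.46), as did Fmod (-1.63) and Epyc (-2.55). The channels of the genotypes did not overlap for Dcn, Aspn or Lum. Of 30 elastic fibre and matricellular genes 14 were higher and 3 lower (12 and 2 after the subtraction), with a median of 0.94. Fbln2, a fibulin, gave 17.24 and 16.98 against 13.65 and 14.19 (3.19), the crosslinking enzyme gene Lox gave 2.80, Mfap5 gave 2.18 and fibronectin (Fn1) gave 1.33. Periostin (Postn) differed by 2.66 here and by 5.74 at low density, whereas Fbln2 (-0.29), Fn1 (-1.30) and Tnc (-0.93, beside 1.84 here) were below 0 at low density. Sparcl1 (-3.40) and Spon2 (-3.19) were lower.

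Matrix proteases and their inhibitors were mixed, with 11 of 35 higher and 8 lower (10 and 7 stayed after the subtraction) and a median of 0.11. Reck (1.06) and Adam12 (1.05, detected in 1 dye of labelled WT) stood past 2-fold only after the subtraction. The stromelysin gene Mmp3 gave 10.93 and 11.01 against 7.89 and 8.25 (2.90) and the inhibitor gene Timp3 gave 2.78, whereas Mmp23 (-3.11) and the gelatinase gene Mmp2 (-1.56) were lower. Adamts1 gave 12.79 and 13.77 against 15.43 and 15.15 (-2.01) and was higher by 4.26 at low density. Contractile genes were called in 7 of 27 cases, 3 higher and 4 lower (median 0.09). Tagln (1.76) was higher, Cnn1 (8.66 and 8.50 against 11.38 and 11.98, -3.10) and the myosin kinase gene Mylk (-2.10) were lower, and Acta2, smooth muscle actin, fell just short of a call at 0.999. Genes of tendon, cartilage and bone had 4 of 17 higher and 4 lower (median -0.02), with Tnc and Mkx (1.38) among the higher and Scx, Phex and Spp1 as the lowest. Of 28 integrin and cadherin genes 10 were higher and 2 lower (1 after the subtraction), with a median of 0.42, or 0.12 with no filter on background. Itga8 gave 13.68 and 13.52 against 10.23 and 10.18 (3.39), N-cadherin (Cdh2) gave 1.05, and Itga5, a subunit of the fibronectin receptor on chromosome 15, gave -1.47, or -0.96 after the subtraction.

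Targets of YAP and TAZ were called higher in 8 of 21 cases and lower in 2, with a median of 0.41. The targets disagreed with each other. Ccn2 (connective tissue growth factor) gave 13.23 and 14.07 in labelled KO and 10.97 and 12.28 in labelled WT, a difference of 2.02, although the dyes differed by more than 1 in labelled WT. Foxf2 gave 9.69 and 9.69 against 7.05 and 7.02 (2.66), Fjx1, a Golgi kinase, gave 2.41 and the angiomotin-like gene Amotl2 gave 11.13 and 11.51 against 9.40 and 9.56 (1.84). Ajuba, an inhibitor of Lats kinases, gave 1.43. Ccn1 (12.42 and 12.62 against 12.19 and 12.53) and Ankrd1 (11.24 and 11.32 against 11.13 and 11.40), both much used targets, overlapped between genotypes. Tissue factor (F3) gave 10.87 and 11.04 against 13.13 and 13.18 (-2.20), and Tgfb2 gave -1.70. In the Hippo pathway itself 5 of 31 genes were higher and 3 lower (2 after the subtraction), with a median of 0.25. TAZ (Wwtr1) gave 1.32 and YAP (Yap1) gave 0.76, which was not called. Fat4, an upstream cadherin (-1.43), Tead2 (-1.21) and Stk3, the Mst2 kinase on chromosome 15 (-1.12, or -0.61 after the subtraction), were lower.

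The TEAD factors that carry YAP and TAZ to DNA bind a short core, GGAATG or CATTCC on the opposite strand. It was searched on both strands of RefSeq windows (build GRCm38.p6) from 250 bases before to 50 after the first listed start of a gene, and 3955 of 27025 windows (14.6%) held it. Of 15 tested targets with a window, 7 held the core, including 2 of the 6 called higher that had a window. The windows of Amotl2 (chr9:102717554-102717853, plus strand) and Ajuba (chr14:54577612-54577911, minus strand), which were called, are shown with those of Ccn1 (chr3:145649936-145650235, minus strand) and Ankrd1 (chr19:36119795-36120094, minus strand), which were not, with the core in capitals. A match in such a window is a run of letters and was not tested for binding.
Amotl2: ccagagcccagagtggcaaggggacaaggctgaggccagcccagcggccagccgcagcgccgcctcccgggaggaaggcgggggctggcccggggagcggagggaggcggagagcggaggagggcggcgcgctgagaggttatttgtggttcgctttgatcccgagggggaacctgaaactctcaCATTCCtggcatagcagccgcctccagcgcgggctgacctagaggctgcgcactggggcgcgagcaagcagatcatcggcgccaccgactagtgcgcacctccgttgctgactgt
Ajuba: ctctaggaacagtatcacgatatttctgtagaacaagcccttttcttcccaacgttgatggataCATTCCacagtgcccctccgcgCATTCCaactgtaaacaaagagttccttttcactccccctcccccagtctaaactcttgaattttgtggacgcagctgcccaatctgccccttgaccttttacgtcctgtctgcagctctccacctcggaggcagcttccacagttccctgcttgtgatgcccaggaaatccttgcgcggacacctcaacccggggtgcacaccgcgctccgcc
Ccn1: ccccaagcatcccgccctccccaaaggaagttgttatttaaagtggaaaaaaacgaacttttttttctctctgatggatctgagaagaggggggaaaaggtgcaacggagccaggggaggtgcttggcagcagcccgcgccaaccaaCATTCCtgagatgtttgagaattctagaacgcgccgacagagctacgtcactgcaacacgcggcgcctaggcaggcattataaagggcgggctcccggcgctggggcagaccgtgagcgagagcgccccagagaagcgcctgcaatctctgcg
Ankrd1: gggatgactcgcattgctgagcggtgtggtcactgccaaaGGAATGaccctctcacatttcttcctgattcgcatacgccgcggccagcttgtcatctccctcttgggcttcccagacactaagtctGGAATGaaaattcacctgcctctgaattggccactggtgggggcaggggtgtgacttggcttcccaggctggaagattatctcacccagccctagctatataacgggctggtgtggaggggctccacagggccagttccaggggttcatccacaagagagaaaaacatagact

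Homeobox genes that record the body position of a fibroblast differed widely. Of 38 Hox genes on the array 20 were tested, and 8 of these were lower and 2 higher in labelled KO (median -0.81). Several of the lower genes came from the HoxA cluster on chromosome 6. Hoxa7 gave 6.44 and 6.34 against 12.02 and 11.76 (-5.50). Hoxa2 was at least 12.3-fold, Hoxa5 at least 8.52-fold and Hoxa4 at least 4.40-fold lower, since none of them was well above background in labelled KO. Hoxa3 (0.31 at its brightest probe) was not called, and its other probe, which read lower in labelled KO, was not well above background there. In the HoxB cluster on chromosome 11 the posterior members Hoxb9 (12.31 and 12.76 against 8.74 and 8.70, 3.82) and Hoxb7 (10.71 and 10.74 against 7.36 and 7.42, 3.34) were higher, and the anterior Hoxb2 was lower (-2.08, with another probe at 0.88). The genes between these did not follow one order along the cluster. Hoxb8 (0.23), Hoxb6 (-0.06), Hoxb5 (0.81), Hoxb4 (0.24) and Hoxb3 (-0.98) were not called. The list median was 0.09 over the genes well above background in both genotypes.

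Other transcription factors of regional identity were called in 26 of 46 cases, 14 higher and 12 lower (13 and 11 stayed after the subtraction), with a median of 0.18. Meis2 (-1.10) stood past 2-fold only after the subtraction. The craniofacial factors Alx4 and Alx1, the limb factor Shox2 and the neural crest and muscle factor Pax3 were on the higher side. Alx1 gave 12.14 and 11.86 in labelled KO against 5.83 and 7.22 in labelled WT, where it was detected in 1 dye, Shox2 was at least 5.90-fold and Pax3 at least 5.40-fold higher, and Irx1 gave 13.75 and 13.70 against 10.84 and 10.87 (2.87). Prrx1 (2.19) and Twist2 (2.47), factors of mesenchyme, were higher too. On the lower side, next to Zic1, were the lateral mesoderm factor Gata6 (-4.95, detected in 1 dye of labelled KO), Foxc2 (7.56 and 7.33 against 10.81 and 10.88, -3.40), Tbx15 (-2.91) and Pax9, at least 6.87-fold lower. At low density the differences were 2.03 for Hoxb9, -2.48 for Foxc2 and -4.54 for Hoxa7, which was detected in 1 dye of labelled KO there, while Alx4 was again not well above background in labelled WT and Zic1 in labelled KO.

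Of 42 genes of TGF-beta and BMP signalling, 11 were higher and 5 lower (9 and 5 after the subtraction), with a median of 0.22. Next to Grem1, the BMP antagonist Chrdl1 was at least 44.4-fold higher, and the ligands Tgfb3 (15.47 and 15.09 against 12.55 and 12.44, 2.79), Inhba (2.02) and Bmp4 (1.99) were higher. Tgfbi, a matrix protein induced by TGF-beta, gave 11.50 and 11.27 against 16.13 and 15.79 (-4.58), and the coreceptor endoglin (Eng, -2.64) and the ligand Tgfb1 (-1.19) were lower. At low density Tgfb3 differed by -0.39. In the IGF system 4 of 16 genes were higher and 3 lower (3 and 3 after the subtraction), with a median of 0.56, or 0.09 with no filter on background. Igfbp5 gave 9.55 and 9.41 against 13.70 and 13.72 (-4.23, with the other probe at -0.98 and detected in 1 dye of labelled KO), next to 3.52 at low density, and Igfbp2 gave -2.28. Notch genes were higher in 4 of 16 cases and lower in 1 (median 0.0051), with the ligand Jag1 at 12.93 and 13.15 against 10.25 and 10.34 (2.75) and the target Hes1 at 1.53. Among growth factors and receptor tyrosine kinases, 7 of 44 were higher and 8 lower (median -0.04). Pdgfra, which marks mesenchymal fibroblasts, gave 12.71 and 12.76 against 9.47 and 9.80 (3.10), and Fgf7 gave 7.79 and 7.79 against 11.01 and 11.01 (-3.22).

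Of 22 imprinted genes 7 were lower, 2 were higher and 13 were not called, with a median of -0.46. Cdkn1c, the CDK inhibitor p57, gave 7.30 and 8.27 in labelled KO and 12.23 and 12.11 in labelled WT (-4.39), H19 gave 7.37 and 7.65 against 11.81 and 11.91 (-4.35), Mest gave -2.55 and Igf2 gave -1.81. Cdkn1c, H19 and Igf2 lie on chromosome 7 and Mest on chromosome 6, and all 7 stayed past 2-fold after the medians of their chromosomes were subtracted. Dlk1 and Usp29 (1.19) were higher. Among 7 CDK inhibitors, Cdkn2b (1.85) and Cdkn2d (1.22) were higher and Cdkn2a (-1.32) and Cdkn1c lower (median 0.09).

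None of 27 cell cycle genes, mostly mitotic, was called, but 22 lay above 0 and the median was 0.42, with Ccnb2 (0.90) and Top2a (0.72) among the highest and Foxm1 (-0.74) lowest. Of 28 replication genes 24 lay below 0 and the median was -0.51. The licensing factor gene Cdt1 (10.42 and 10.42 against 11.88 and 11.83, -1.43) and the helicase genes Mcm2 (-1.15) and Mcm10 (-1.05) were called lower. The ribonucleotide reductase gene Rrm2 gave 1.65. After the subtraction 1 was higher and 2 lower. The H3K27 methyltransferase complex PRC2 had 1 of 11 genes lower, Rbbp4 (-1.03), which lies on chromosome 4 and stood at -0.71 after the subtraction, and the median was -0.50. The core genes were not called. Ezh2 gave -0.17 with overlapping genotypes, Suz12 gave -0.16 with another probe at 0.53, and Eed gave -0.75. For PRC1, 1 of 19 was higher and 1 lower (median -0.32). Cbx7 was at least 3.09-fold higher and Phc2, also on chromosome 4, gave -1.18, or -0.86 after the subtraction.

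Chemokine and complement genes were called lower more often than higher. Of 22 chemokine and cytokine genes 10 were lower and 4 higher. The median was -0.94, but -0.35 over genes detected in both genotypes and -1.86 with Agilent's processed signals. Ccl5 gave 7.27 and 7.29 against 11.45 and 11.36 (-4.13), Cxcl1 gave -4.23 with detection in 1 dye of labelled KO, Cxcl5 was at least 9.76-fold lower, and the stromal chemokine gene Cxcl12 gave 14.31 and 14.21 against 16.25 and 16.48 (-2.11). Ccl2 (1.63) and Ccl7 (1.22), attractants of monocytes, and the scavenger receptor gene Ackr3 (2.22) were higher. At low density the differences were 4.77 for Ccl2 and, with detection in 1 dye of labelled KO, -0.63 for Cxcl1 and -2.19 for Ccl5. Of 14 complement genes 6 were lower and 1 higher (median -0.0023). The central component C3 gave 7.01 and 7.16 in labelled KO, a difference of -3.45, and Masp1 gave 1.31. Of 28 interferon-stimulated genes 3 were lower (2 after the subtraction) and none higher (median -0.27), and Isg15 gave -1.93 with detection in 1 dye of labelled KO. MHC class I genes had 4 of 20 higher and none lower (median 0.19), led by H2-T23 (1.49). Their sequences are alike, so a probe may read several of them.

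In metabolism, the hypoxia and glycolysis list had 8 of 30 lower and 2 higher (6 and 1 after the subtraction), with a median of -0.17. The hexokinase gene Hk2 gave 9.66 and 9.68 against 11.46 and 11.85 (-1.99), the glucose transporter gene Slc2a1 (-1.23) on chromosome 4 stood at -0.91 after the subtraction, Ndrg1 gave -1.85 and the phosphofructokinase gene Pfkp gave 2.17. Of 35 antioxidant and glutathione genes 6 were lower (5 stayed after the subtraction) and 3 higher (median -0.01). Sod3, not well above background in labelled KO, stood past 2-fold lower only after the subtraction. Gpx7 gave 8.32 and 8.31 against 11.71 and 11.73 (-3.40) and Prdx4 gave -2.29, whereas Gsta4 gave 1.98. Of 43 lysosomal genes 5 were lower and 1 higher (median -0.18), with Ctsc at least 6.24-fold lower next to Ctsh. Of 18 adipogenic genes 5 were lower and 3 higher (4 and 2 after the subtraction), with a median of -0.31. Fabp4, a fatty acid carrier, was at least 22.8-fold lower, while the lipoprotein lipase gene Lpl was at least 25.1-fold higher. Pparg, the main regulator of fat cells, gave -0.19. Of 17 retinoid genes 4 were higher and 3 lower (median 0.16). Next to Crabp1, the retinaldehyde dehydrogenase gene Aldh1a1 gave 10.70 and 10.71 against 7.67 and 7.90 (2.92), and Rarres2, which encodes chemerin, gave -2.76.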

How the data were processed

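The deposited files hold scanner intensity values of 4 two-colour arrays, extracted by the authors with Agilent Feature Extraction (version 10.5.1.1, per the submitters' processing notes), before normalization. The value table of the series was not used. Mean intensity was corrected for the background median by normexp (offset 50), normalized by loess within arrays and Aquantile between arrays (limma 3.58.1, R 4.3.3), with control spots at weight 0 and outlier spots left out, and averaged over spots of a probe. KO minus WT was taken within each dye at high density and averaged, among probes with at least 0.5 of their spots well above background in both dyes of 1 genotype. Gene names came from the array's accessions and names through RefSeq (GRCm38.p6): 24375 probes were matched by accession, 6301 by symbol, 2426 by synonym and 53 by a shared array name, and 8019 kept the array's name. A gene stands by its brightest tested probe in lists. Positions are those of the array annotation (mm8). Fold bounds use the lowest signal well above background in a channel. Named genes are Lats1 and Lats2, the 15 highest and 15 lowest among probes detected in all 4 channels, the 5 largest bounds each way, and list members with the largest called differences or that name the list. Members that were not called, and values at low density or after subtraction, were picked for mention after their values were seen. Some genes that the rule names are not reported here. The members and lists were chosen with earlier results of these data known. Number of arrays limits precision: 1 sample per genotype. Alternatives to the background correction, offset, normalization, filter, flags, threshold, dyes and probe choice were run, and subtraction of chromosome medians was added after seeing the data. Python 3.11 and pandas were used for the counts.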

Additional observations from a re-analysis of the deposited data

How the results depend on the processing

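Counts of called probes depended on the processing. With Agilent's processed signals scaled to the 75th percentile, which changes the background correction and the normalization together, 3506 probes were higher and 2575 lower (the cause was not tested). With a normexp offset of 16 they were 1974 and 2039, and at a threshold of 1.4-fold 4563 were higher and 4307 lower. Leaving out 1 array pair, and so 1 dye, gave 1395 to 1836 higher and 1486 to 1733 lower. Subtracting chromosome medians, chosen after seeing the data, gave 1370 higher and 1453 lower. The direction reversed for the upstream Lats2 probe, to 0.62, when the mean over the tested probes of the gene was taken, because the mean then holds the other Lats2 probes. The median of chromosome 15 lay between -0.64 and -0.15 over the settings of background correction, normalization, filter, flags and dye, and it is 0 by construction where chromosome medians are subtracted. Some setting changed the sign of 14 of 41 list medians. Among them were those of the Hox genes (-1.71 to 0.09), PRC1 (-0.36 to 0.01) and the regional transcription factors (-0.03 to 0.38). The median of the imprinted genes ran from -0.71 to -0.13. The medians of the chemokines (-1.86 to -0.35), Wnt genes (0.44 to 1.12), IGF system (0.09 to 0.65), integrins and cadherins (from 0.12), adipogenic genes (up to -0.05), TGF-beta and BMP genes (from 0.10), YAP/TAZ targets (0.27 to 0.66) and cell cycle genes (from 0.26) moved by over 1.5 times with their sign kept. Those of the Hippo pathway (0.23 to 0.42), CDK inhibitors (0.06 to 0.41), MHC class I genes (0.11 to 0.45) and proteasome genes (-0.25 to -0.10) did so too. The medians of chromosomes 8, 13 and X also changed sign in some setting. No paired analysis was possible because each genotype gave 1 sample at high density. Array signal limits genes near background to a bound.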
